A study of Mus musculus with 6 samples.

Results

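AMPA receptors are the glutamate-gated channels that carry most fast excitatory transmission in the brain. This report describes the RNA of 10 AMPA receptor genes in nuclei sorted from mouse medial prefrontal cortex (mPFC). The sort used a label that depends on Cre from the Foxp2 line, and RNA of other cell types was present. The genes were taken by their names: the pore subunits Gria1, Gria2, Gria3 and Gria4, the transmembrane AMPA receptor regulatory proteins (TARPs) Cacng2, Cacng3 and Cacng8, the cornichons Cnih2 and Cnih3, and Shisa9, which encodes the auxiliary protein CKAMP44. All 10 were found among the 24421 genes of the deposited table and all 10 were among the 13560 genes tested. Foxp2-Cre mice received an adeno-associated virus (AAV) expressing KASH-GFP, a green fluorescent protein held at the nuclear envelope, on both sides of the mPFC. The tissue was taken 4 weeks after the virus, and polyadenylated RNA of 10000 sorted nuclei was sequenced per library. There were 3 libraries labelled CFA (complete Freund's adjuvant, injected to cause inflammation and with it persistent pain) and 3 labelled saline. Virus and Cre line were common to both groups, and the labelled nuclei are those of cells that had Cre from the Foxp2 line and took up the virus. The labels used here give neither the time from CFA to collection nor the age of the mice. They also do not state that replicates are different animals, so each p-value reflects only library-to-library spread, part of which may be technical.

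An AMPA receptor is a tetramer of pore subunits, and its subunit mixture sets how the channel conducts. Receptors that hold an edited GluA2 subunit, the product of Gria2, pass little calcium, and receptors without it are calcium-permeable. TARPs, cornichons and CKAMP44 bind the tetramer, help it leave the endoplasmic reticulum or reach the synapse, and change how fast it closes or desensitizes. AMPA receptor number at cortical synapses is a classic substrate of synaptic plasticity, which is why these genes are of interest in lasting pain.

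The 4 pore subunits are close relatives, and the coding stretch around the RNA-editing site of Gria2 shows how their reads can still be told apart. The stretches are printed 5′ to 3′ on the coding strand from the GENCODE M21 transcripts (GRCm38, the same build as mm10), and capitals mark the glutamine codon of the pore loop, which editing of the messenger recodes to arginine in Gria2. They lie at chr11:57243043-57243114 on the plus strand (Gria1), chr3:80706893-80706964 on the minus strand (Gria2), chrX:41610214-41610285 on the plus strand (Gria3) and chr9:4464119-4464190 on the minus strand (Gria4). Each is within 1 coding exon, exon 11 of 16 in the transcript used for Gria1, Gria2 and Gria3 and exon 12 of 17 for Gria4.
Gria1: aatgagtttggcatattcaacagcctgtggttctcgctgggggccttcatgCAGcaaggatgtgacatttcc
Gria2: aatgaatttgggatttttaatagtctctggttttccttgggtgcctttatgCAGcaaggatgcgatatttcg
Gria3: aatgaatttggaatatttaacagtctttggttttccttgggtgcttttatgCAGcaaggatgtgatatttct
Gria4: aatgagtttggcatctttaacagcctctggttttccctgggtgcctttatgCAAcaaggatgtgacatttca
All 4 genes encode the same amino acids along a run of 71 codons that holds this site, yet over the 72 bases shown Gria1 differed from Gria2 at 15 positions, Gria3 at 7 and Gria4 at 10. The genome has CAG at the marked codon in Gria1, Gria2 and Gria3 and CAA in Gria4. Over whole coding sequences the pore subunits were 69.9% to 73.1% identical in pairs, and the longest run of bases shared by any pair was 41 (Gria2 and Gria4). Among the TARPs the longest shared run was 23 bases and between the cornichons 19. Counts per gene hold no information on editing, and they add the flip and flop splice forms together.

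Total counts were 9673038 to 11850741 per library. The vesicular glutamate transporter gene Slc17a7, a marker of cortical excitatory neurons, was at 1931 to 2645 CPM (TMM-scaled counts relative to library size) in all 6 libraries. Foxp2 was at 24.0 to 43.7 CPM and the inhibitory markers Gad1 and Gad2 at 44.6 to 81.6 and 14.0 to 31.4 CPM, so inhibitory neuron RNA was present. As a list, 12 inhibitory markers summed to 194 to 296 CPM under CFA against 188 to 283 CPM under saline. None was at 0 in any library, and their log2 fold changes were positive for 10 of 12. The 9 markers of corticothalamic neurons, Foxp2 among them, summed to 1169 to 1310 CPM under CFA and 1160 to 1539 CPM under saline. Of these, 8 had negative log2 fold changes (list median -0.104), and 0 were called. Ntsr1, one of them, was at 11.6 to 15.6 CPM under CFA and 18.7 to 22.8 CPM under saline. Astrocyte markers summed to 480.8 to 681 and 479.6 to 557 CPM, and oligodendrocyte markers to 304 to 470.1 and 341 to 422 CPM. The summed levels did not overlap for upper layer markers, 383 to 416 CPM under CFA and 305 to 351 CPM under saline. Their log2 fold changes were positive for 4 of 6. Lamp5 made up most of this sum, at 271 to 304 CPM under CFA and 200 to 265 CPM under saline. No other upper layer marker had groups without overlap. Cux1, Cux2 and Rorb had their highest value in a saline library, Calb1 and Rasgrf2 in a CFA library. Oligodendrocyte precursor sums also did not overlap (31.8 to 45.6 and 19.0 to 28.5 CPM). Olig1 was the largest part, at 17.7 to 23.9 CPM under CFA and 10.3 to 13.7 CPM under saline. Pdgfra, Gpr17 and C1ql1, at lower levels, were also higher in every CFA library than in any saline library. Cspg4 went the other way without overlap, and the groups overlapped for Olig2 and Sox10. Pdgfra was at 0 in saline replicate 2, and Olig2 and Gpr17 were at 0 in saline replicate 3. Log2 fold changes were positive for 5 of the 6 tested precursor markers. Microglia markers summed to 99.5 to 157 and 79.7 to 113 CPM, with positive log2 fold changes for 9 of 10. Itgam, one of them, was at 0 in saline replicates 1 and 2. The part of these cell types in the AMPA receptor values was not tested. In such bulk samples fewer cells of a type and less RNA per cell cannot be told apart. A pair of saline libraries stood apart from the rest. Saline replicate 3 had the highest summed level of the nuclear-retained RNAs Malat1, Meg3, Snhg11 and Neat1, 45108 CPM against 21711 to 31705 CPM in the other 5 libraries. Saline replicate 1 had the highest summed level of striatal projection neuron markers, 1016 CPM against 290.3 to 502 CPM, and Adora2a, one of them, was at 0 in CFA replicate 3. All 9 tested striatal markers had negative log2 fold changes (median -1.01), and 0 of them were called.

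Levels of different genes were compared as CPM per kilobase of the deposited exon model. Gria2 was the most abundant of the 10 genes, with a mean of 247 CPM per kilobase over the 6 libraries (range 217 to 269), above 98.6% of all tested genes. Cnih2 followed at 134, Cacng3 at 102, Gria3 at 82.9, Gria1 at 78.0 and Cnih3 at 58.3 CPM per kilobase. A lower tier held Gria4 at 16.2, Shisa9 at 15.9, Cacng2 at 5.49 and Cacng8 at 1.39 CPM per kilobase. The levels therefore spanned from the 14.4th percentile of tested genes (Cacng8) to the 98.6th (Gria2).

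**Figure D1:**
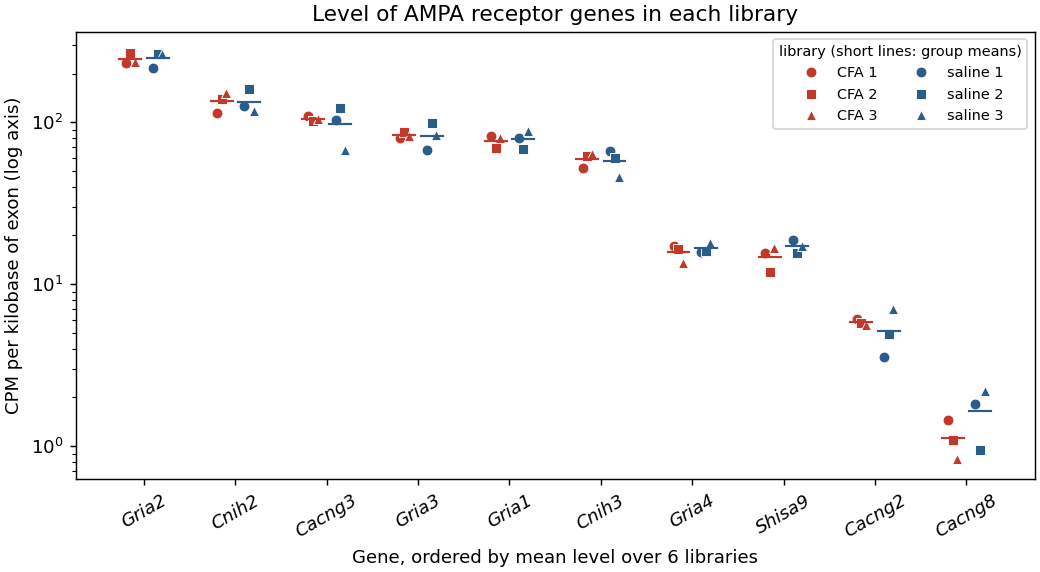
CPM per kilobase of exon (log axis) of the 10 genes in each of the 6 libraries, ordered by mean level; red points are CFA and blue points saline libraries, marker shapes are replicates and short lines are group means. Gria2 lies above every other gene in all 6 libraries, Cacng8 lies below every other gene, and the red and blue points of each gene overlap.

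Not every step of this order was larger than the spread between libraries. Gria2 exceeded Cnih2 by 1.84-fold in the mean, and their ranges did not overlap. Neighbours whose ranges overlapped were Cnih2 and Cacng3, Cacng3 and Gria3, Gria3 and Gria1, and Gria4 and Shisa9. Gria3 was above Gria1 in only 3 of 6 libraries, and Gria4 was above Shisa9 in 4 of 6. The steps from Gria1 to Cnih3, from Cnih3 to Gria4 (3.60-fold), from Shisa9 to Cacng2 (2.90-fold) and from Cacng2 to Cacng8 (3.96-fold) were clear of overlap. Division by exon length rests on the deposited gene models. These held 52.4%, 55.0% and 58.8% of the exon length of the protein-coding GENCODE transcripts for Cacng2, Cacng3 and Cacng8, 73.9% for Gria2 and 96.8% or more for the other 6 genes, and 92.0% of the Cacng8 model was coding sequence. On the minus strand, the Cacng2 model stopped short of the GENCODE gene at its 3′ end (77993623 against 77991748). So did that of Gria2 (80684936 against 80681450). The Cacng3 model, on the plus strand, reached the 3′ end (122769394 against 122769393) but began later (122671744 against 122670492). The part of these model differences in the levels and shares of Gria2, Cacng2, Cacng3 and Cacng8 was not tested.

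The comparison of CFA with saline libraries asks whether RNA levels in these sorted nuclei depend on the inflammatory agent. For the AMPA receptor genes no difference was detected. In the quasi-likelihood test of edgeR, Benjamini-Hochberg adjusted over all 13560 genes, 0 of the 10 passed the threshold of 0.05, and 0.0% of all genes did. At an unadjusted p under 0.05 the count was again 0 of 10, against 3.22% of all genes, and DESeq2 and limma-voom also called 0 of the 10. The CFA and saline values overlapped for all 10, and 7.51% of tested genes had groups without overlap. At shares of 3.22% and 7.51%, counts of 0 of 10 do not set these genes apart from the rest. The log2 fold changes (CFA minus saline) were positive for 5 genes and negative for 5, with a median of -0.0087, beside a median of -0.0011 over all genes tested. In the edgeR fit, unadjusted p-values ran from 0.254 (Shisa9) to 0.994 (Gria3), and the adjusted p was 0.99997 for each.

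**Figure D2:**
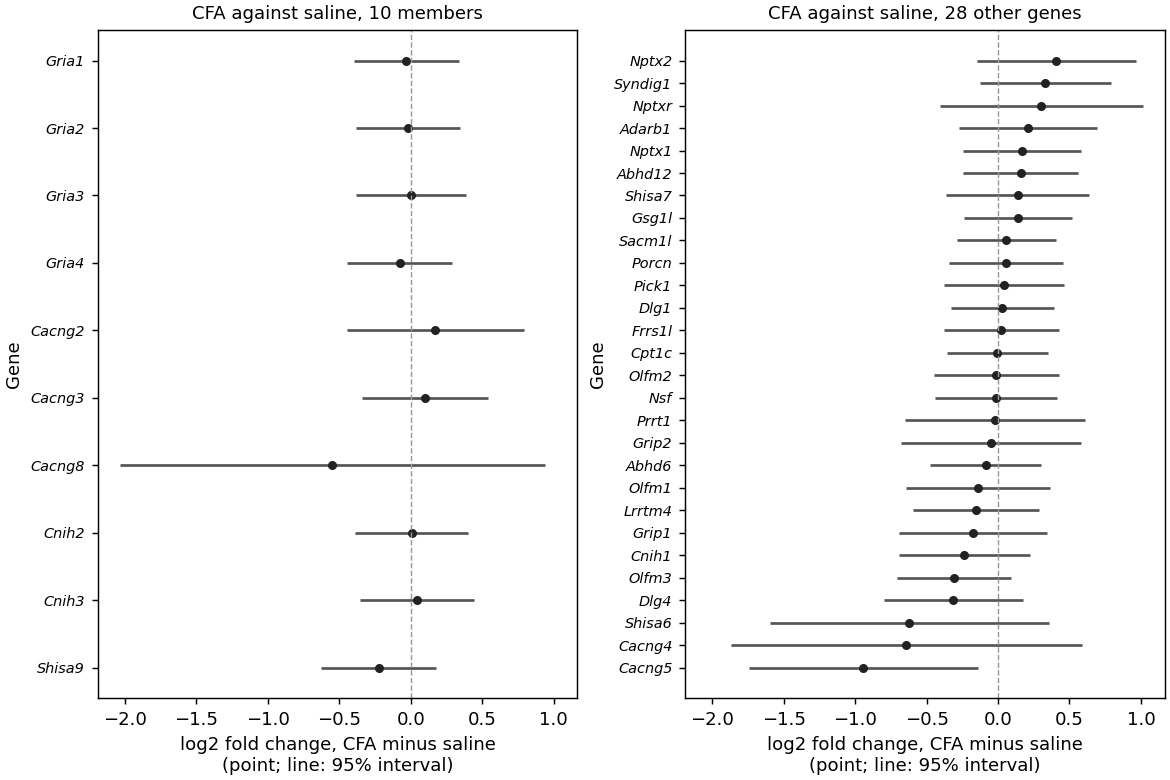
Log2 fold change, CFA minus saline, with its 95% interval, for the 10 AMPA receptor genes (left) and 28 other tested genes of AMPA receptor assembly, trafficking and anchoring (right). All 10 intervals on the left include 0, the narrowest being that of Gria2 (-0.38 to 0.34) and the widest that of Cacng8 (-2.04 to 0.94); on the right the interval of Cacng5 alone excludes 0 before adjustment.

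Among the pore subunits, Gria2, which makes the receptor calcium-impermeable once edited, was at 1793, 2087 and 1821 CPM in CFA replicates 1 to 3 and at 1685, 2057 and 2035 CPM in saline replicates 1 to 3. The lowest value was in saline replicate 1 and the highest in CFA replicate 2, so each group spanned most of the range. Group means were 1901 ± 162 CPM (SD, n = 3) under CFA and 1926 ± 209 CPM (SD, n = 3) under saline. The log2 fold change was -0.019 ± 0.17 (SE), and its 95% interval corresponds to a CFA level between 0.768 and 1.27 times that of saline.

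Gria1, whose product is the subunit most studied in activity-dependent insertion at synapses, was at 492, 412 and 479 CPM in CFA and at 476, 409.8 and 528 CPM in saline libraries. The replicate 2 library was the lowest in both groups. Its log2 fold change was -0.031 ± 0.17 (SE), with a 95% interval from 0.759 to 1.26 times. Gria3, an X-linked subunit gene, was at 424, 463 and 437 CPM in CFA and at 357, 524 and 441 CPM in saline libraries. Both the lowest and the highest value were in saline libraries, and the coefficient of variation was 4.48% in CFA and 19.0% in saline. For Gria3 the log2 fold change was 0.0014 ± 0.18 (SE).

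Gria4, known in cortex mainly from fast-spiking interneurons, was the least abundant pore subunit. It was at 105, 102 and 83.4 CPM in CFA and at 96.7, 99.1 and 111 CPM in saline libraries. CFA replicate 3 was the lowest, and it also had the lowest summed inhibitory marker level of the CFA libraries, 194 CPM against 289 and 296 CPM. Saline replicate 3, with the lowest inhibitory level of all (188 CPM), had the highest Gria4 value. For Gria4 the log2 fold change was -0.078 ± 0.17 (SE), and the part of inhibitory neuron RNA in its values was not tested.

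The mixture of pore subunits did not differ detectably between the groups. Gria2 made up 56.4%, 61.0% and 57.2% of the summed pore subunit level (per kilobase) in CFA and 57.2%, 59.2% and 58.1% in saline libraries, with means of 58.2% ± 2.44 (SD, n = 3) and 58.2% ± 0.960 (SD, n = 3). Thus in each of the 6 libraries Gria2 RNA exceeded the other 3 subunits together, by 1.29 to 1.56 times. Gria3 made up 17.7% to 22.0%, Gria1 15.3% to 20.96% and Gria4 3.30% to 4.17% over all libraries. The 2 replicate 2 libraries had the lowest Gria1 shares, 15.6% in CFA and 15.3% in saline. Over the 8 shares tested here and below, every adjusted p was 1 in two-sided exact permutation tests, for which 3 against 3 libraries cannot give a raw p below 0.1; the raw p was 0.7 to 1 for the pore subunits.

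**Figure D3:**
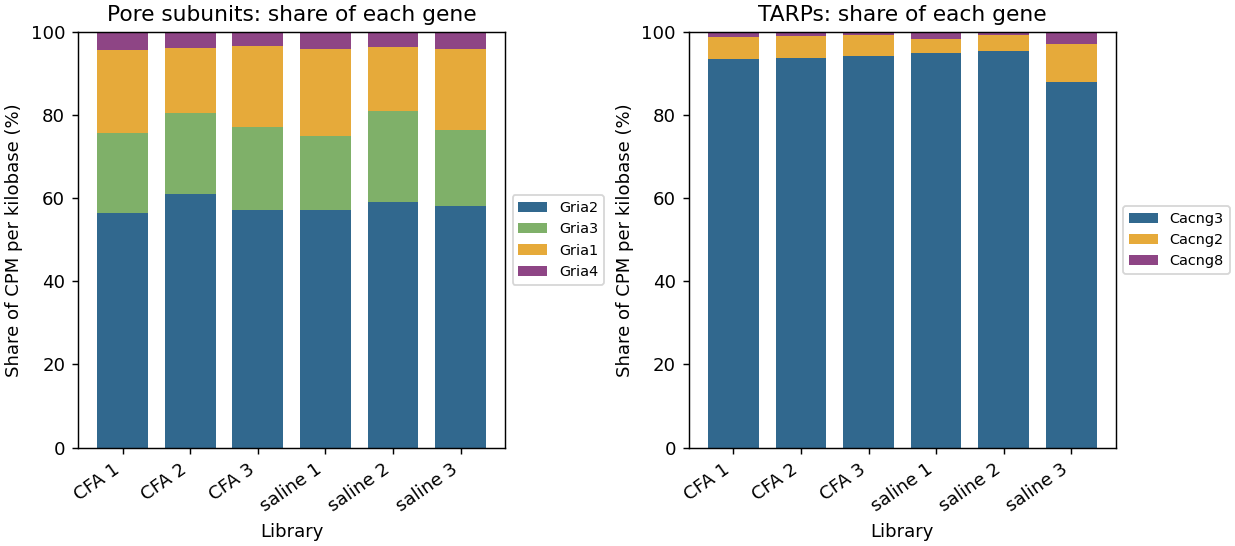
Share of each gene in the summed CPM per kilobase of the 4 pore subunits (left) and of the 3 TARPs (right), 1 bar per library. Gria2 takes 56.4% to 61.0% of the pore subunit level in every library, and Cacng3 takes 93.5% to 95.5% of the TARP level in 5 libraries and 88.0% in saline replicate 3.

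Among the 3 TARPs of the 10 genes, Cacng3 had the highest level on the deposited models, which lack the 3′ end of Cacng2. It was at 166, 156 and 159.9 CPM in CFA and at 158, 188 and 103 CPM in saline libraries. The coefficient of variation was 3.24% in CFA and 28.6% in saline, with saline replicate 3 the lowest of all 6. The log2 fold change was 0.10 ± 0.21 (SE), and without saline replicate 3 it was -0.11. Saline replicate 3 is the library with the highest level of nuclear-retained RNA, and the part of that in its Cacng3 value was not tested.

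Cacng2, which encodes stargazin, the founding TARP, was at 17.6, 16.7 and 16.1 CPM in CFA and at 10.3, 14.2 and 20.3 CPM in saline libraries. Saline libraries held both the lowest value, in replicate 1, and the highest, in replicate 3, and the CFA values lay between. The log2 fold change was 0.17 ± 0.29 (SE), and without saline replicate 1 it was -0.038. Cacng8, a TARP best known from the hippocampus, had only 24, 17 and 12 counts in CFA and 28, 14 and 30 counts in saline libraries, or 1.15 to 3.04 CPM. The limit set by a count of 0, which is 3 counts, corresponds to 0.25 to 0.304 CPM in these libraries, so Cacng8 was above that floor in all 6. Its log2 fold change was -0.55 ± 0.70 (SE), with a 95% interval from 0.244 to 1.91 times, the widest of the 10 genes. A small RNA gene model, Gm23450, lies within a Cacng8 exon on the same strand, and had 0 counts in all 6 libraries. How reads shared by both models were counted is not known here, so these counts do not show whether Cacng8 lost reads.

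As shares of the summed level of these 3 TARPs, Cacng3 held 93.5%, 93.7% and 94.2% in CFA and 95.1%, 95.5% and 88.0% in saline libraries. The other tested TARP genes, Cacng4 and Cacng5, are outside this sum. Their means of 3.28 and 3.75 CPM per kilobase lay below that of Cacng2 and above that of Cacng8. Saline replicate 3 alone departed, with 9.13% Cacng2 and 2.87% Cacng8 against at most 5.30% and 1.67% elsewhere. The mean Cacng3 share was 93.8% ± 0.383 (SD, n = 3) in CFA and 92.8% ± 4.19 (SD, n = 3) in saline libraries, a difference of 0.977 percentage points (two-sided exact permutation p = 1). Without saline replicate 3 the difference was -1.44 points, in the other direction. The Cacng8 share had the smallest raw p of the 8, 0.4 in the same test, with means of 0.998% ± 0.246 (SD, n = 3) and 1.75% ± 1.07 (SD, n = 3).

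The cornichons act as export factors in the endoplasmic reticulum and stay with receptors at the surface. Cnih2 was at 157, 190.2 and 206 CPM in CFA and at 172, 219 and 160.1 CPM in saline libraries, with overlapping groups and a log2 fold change of 0.0066 ± 0.18 (SE). The last bases of its model overlap those of Yif1a on the opposite strand, and the library kits do not mark strand. Cnih3 was at 142, 169.9 and 173 CPM in CFA and at 182, 163 and 125 CPM in saline libraries. Saline replicate 3 was again the lowest, and the log2 fold change of 0.044 ± 0.19 (SE) was -0.094 without it. Cnih2 made up 65.4% to 72.7% of the summed level of Cnih2 and Cnih3 (per kilobase). Means were 69.4% ± 0.823 (SD, n = 3) in CFA and 70.0% ± 4.01 (SD, n = 3) in saline libraries. The two-sided exact permutation test gave p = 0.9. Cnih1, a cornichon gene outside the 10, is not in this sum. Its mean over the 6 libraries was 91.2 CPM per kilobase, above the 58.3 of Cnih3.

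Shisa9, whose product CKAMP44 slows recovery of the receptor from desensitization, had the smallest p of the 10 genes. It was at 75.5, 57.2 and 80.7 CPM in CFA and at 90.7, 75.2 and 83.5 CPM in saline libraries. CFA replicate 2 was the lowest, and the other CFA values lay within the saline range. Means were 71.1 ± 12.3 CPM (SD, n = 3) and 83.1 ± 7.77 CPM (SD, n = 3). The log2 fold change was -0.23 ± 0.19 (SE), with a 95% interval from -0.63 to 0.18. Without CFA replicate 2 it was -0.09.

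Summed over the family, the 4 pore subunits were at 410.5, 442 and 411 CPM per kilobase in CFA and at 379.8, 449 and 452 in saline libraries. The 6 auxiliary genes together were at 299, 322 and 342 CPM per kilobase in CFA and at 320.0, 364 and 257 in saline libraries. Auxiliary RNA per pore subunit RNA was thus 0.728, 0.729 and 0.832 in CFA and 0.843, 0.811 and 0.569 in saline libraries. The lowest ratio was in saline replicate 3 and the highest in saline replicate 1, so that the saline group enclosed the CFA group. On the log2 scale the groups differed by -0.016 for the pore sum, 0.045 for the auxiliary sum and 0.061 for their ratio, with p of 0.8, 0.8 and 0.9 in two-sided exact permutation tests. Without saline replicate 3 these were 0.028, -0.091 and -0.12.

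**Figure D4:**
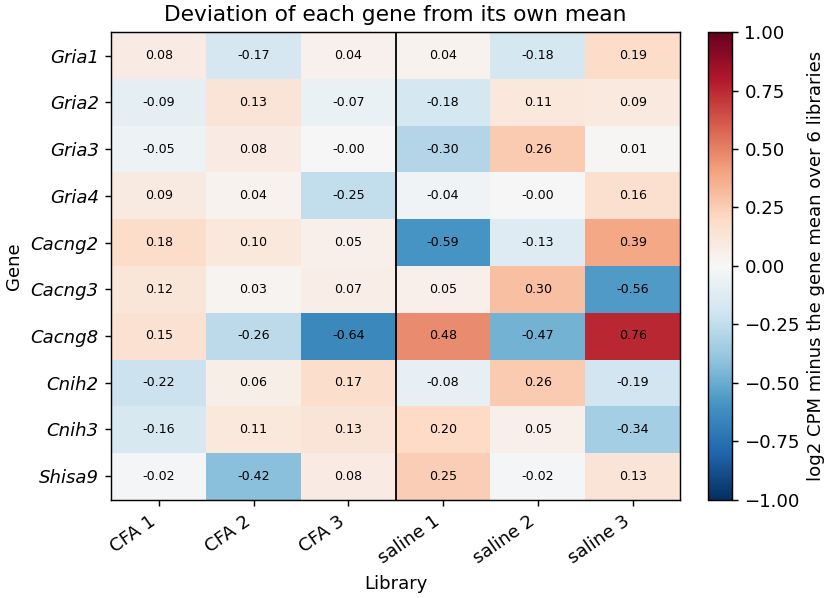
Log2 CPM of each gene in each library minus the mean of that gene over the 6 libraries, CFA left and saline right of the black line. Saline replicate 3 holds the highest value of 4 genes (Gria1, Gria4, Cacng2 and Cacng8) and the lowest of Cacng3 and Cnih3, and no gene has its 3 CFA values all above or all below its 3 saline values.

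The largest departures within the family were in saline replicates 3 and 1. The root mean square deviation of the 10 genes from their own means was 0.36 (log2) in saline replicate 3 and 0.29 in saline replicate 1, against 0.13 to 0.23 in the other 4 libraries. Cacng8, the gene with the fewest counts, weighed on these values. It deviated by 0.76 in saline replicate 3 and -0.64 in CFA replicate 3, the largest deviation of the 10 genes in each. Saline libraries held the highest value of 9 of the 10 genes and the lowest value of 6. CFA replicate 2 had the highest Gria2 value, the exception.

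Of 30 further genes of the AMPA receptor pathway, 28 were tested and the edgeR fit called 0 at the threshold of 0.05. Log2 fold changes were positive for 13 and negative for 15, with a median of -0.0086. At an unadjusted p under 0.05 there was 1 gene, Cacng5, and groups did not overlap for 2, Cacng5 and Syndig1, shares close to the 3.22% and 7.51% of all tested genes. Cacng7 and Shisa8 were too low to test, with 4 to 10 and 0 to 20 counts per library. The 6 genes with the smallest p are given as values, not as calls.

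Cacng5, a type II TARP, was at 15.7, 4.50 and 9.23 CPM in CFA and at 21.2, 19.2 and 16.3 CPM in saline libraries. All CFA values were below all saline values, by little for CFA replicate 1, and the log2 fold change was -0.94 ± 0.37 (SE). The edgeR adjusted p over all genes was 0.99997 (0.0243 before adjustment). This fold change was -0.59 (log2) without CFA replicate 2 and -1.47 without CFA replicate 1. Syndig1, which encodes a synaptic AMPA receptor-binding membrane protein, was at 46.4, 49.4 and 51.3 CPM in CFA and at 45.7, 41.9 and 29.2 CPM in the saline group, with a log2 fold change of 0.33 ± 0.21 (SE). Nptx2, a secreted pentraxin that clusters AMPA receptors, had a log2 fold change of 0.41 ± 0.26 (SE), with 35.1 ± 6.93 and 26.4 ± 8.71 CPM (SD, n = 3 each). Olfm3, a noelin that binds AMPA receptors from outside, had a log2 fold change of -0.31, Dlg4, which encodes the scaffold PSD-95, of -0.31, and Shisa6, a relative of Shisa9, of -0.62. Adarb1, the enzyme that edits the Gria2 codon shown above and a gene chosen here for that role after its values were seen, averaged 51.9 CPM under CFA against 44.8 CPM under saline. Its log2 fold change was 0.21 ± 0.23 (SE), and it ran from 0.032 without saline replicate 1 to 0.42 without saline replicate 3. With each library left out in turn, the others ran from -0.45 to -0.15 (Olfm3), 0.24 to 0.71 (Nptx2), 0.16 to 0.46 (Syndig1), -0.41 to -0.18 (Dlg4) and -1.10 to -0.20 (Shisa6), with no change of sign.

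The genes whose levels followed the summed pore subunit level most closely over the 6 libraries were Exoc5, Fam155a, Srpk1 and P4ha1. Their centred log2 levels differed from it by a root mean square of 0.038, 0.040, 0.043 and 0.046, where the median over the 6664 genes compared was 0.23. A gene that did not vary would be at 0.089, the SD of the pore level itself over the 6 libraries. Exoc5, which encodes a subunit of the exocyst complex, was at 97.2, 107 and 100.5 CPM in CFA and at 91.6, 109.5 and 117 CPM in saline libraries. With 6 libraries and so many genes, this is a description of these libraries.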

How the data were processed

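Sorted nuclei of 6 libraries were measured by RNA sequencing, 3 CFA and 3 saline, grouped by their titles. The authors deposited raw counts per gene with exon intervals and exon length, per the file headers; the submitters' processing notes list Trim Galore, HISAT2 2.2.1, SAMtools 1.13, featureCounts 2.0.1, edgeR 3.32.1 and mm10. Strand and multimapping settings were not stated there. Counts were fitted with edgeR 4.0.16 (R 4.3.3; TMM, filterByExpr, quasi-likelihood test, treatment only), with Benjamini-Hochberg adjustment over 13560 genes and a threshold of 0.05; SE and 95% intervals derive from the quasi-likelihood F statistic. The fit was tested on simulated data. Sums and shares (CPM per kilobase) were compared by exact permutation over libraries. Coding sequences came from GENCODE M21 with Biopython 1.88. Reads were amplified without molecular identifiers, so floors describe counting error alone. No 2 libraries were copies of one another (lowest chi-square per degree of freedom 17.2). The named genes were the 10 members and the 4 genes most like the pore sum (mean log2 CPM of at least 5). Of the 30-gene pathway list they were any called gene or else the 6 with the smallest p. Adarb1, Cnih1 and Cacng4 were added outside this rule. Members, lists and rules were chosen with earlier results of these data known. Alternatives covered scaling, low-count filters, DESeq2 1.42.0, limma-voom (limma 3.58.1), a threshold of 0.1, exon length, the replicate number and each library left out.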

Additional observations from a re-analysis of the deposited data

How the results depend on the processing

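None of the 10 AMPA receptor genes was called under any of the 14 alternatives to the edgeR fit; with at least 5 CPM in at least 3 libraries Cacng8 was not tested. Over all genes the count of calls was 0 with TMM scaling and the default filter, and it was 9 without a low-count filter, 5 with DESeq2 and 6 with the replicate number as a block. Leaving out each library gave 0 to 5 calls, 5 of them without saline replicate 3. The replicate numbers were not treated as pairs, since deviations of same-numbered libraries correlated at -0.079, 0.025 and -0.069, and the block changed no call among the 10 genes. Log2 fold changes of 8 of the 10 changed sign under some alternative, for 22 of 129 values. Gria3 was at -0.0096 with RLE scaling, -0.0096 with DESeq2 and -0.0013 with the 5 CPM filter, and Cnih2 at -0.0053 with RLE scaling and -0.0054 with DESeq2. The other changes of sign came from leaving out 1 library. Those ranges were -0.12 to 0.060 (Gria1), -0.11 to 0.034 (Gria2), -0.13 to 0.15 (Gria3), -0.15 to 0.021 (Gria4), -0.038 to 0.46 (Cacng2), -0.11 to 0.30 (Cacng3), -0.083 to 0.15 (Cnih2) and -0.094 to 0.16 (Cnih3). Cacng8 (-0.83 to -0.29) and Shisa9 (-0.32 to -0.090) kept their sign. For sums the ranges were -0.098 to 0.028 (pore subunits), -0.091 to 0.16 (auxiliary genes) and -0.12 to 0.16 (their ratio). For shares, in percentage points, they were -1.86 to 1.18 (Gria1), -1.39 to 0.909 (Gria2), -0.461 to 1.69 (Gria3), -0.384 to 0.0491 (Gria4), -1.29 to 1.64 (Cacng2), -1.44 to 2.29 (Cacng3) and -2.87 to 0.802 (Cnih2), while the Cacng8 share kept its sign (-1.27 to -0.201). The cause was not tested. Cacng8 had the fewest counts, 12 to 30 per library.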
